A study of Mus musculus with 36 samples.

Results

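The expression of 10 genes that carry, store or release calcium in heart muscle cells was followed: Ryr2, Casq2, Trdn, Jph2, Atp2a2, Pln, Sln, Slc8a1, Cacna1c and Camk2d. They were chosen by name from knowledge of the pathway, with earlier results of these data known. They were matched to their Ensembl identifiers in the deposited count tables, and all 10 were found among the 78239 genes listed there. Hearts, kidneys and livers had been taken from wild-type male C57BL/6NCrl mice, an inbred substrain, whose age was 8, 10 or 12 weeks and for which the labels give no treatment. Each tissue and age had 4 samples labelled as biological replicates, which makes 36 libraries of polyadenylated RNA, and the libraries held 21031599 to 33637390 read pairs counted on genes (21743131 to 29791297 in heart). Levels are given as CPM, the pairs counted on a gene relative to all counted pairs of the library, after scaling between the libraries of a tissue.

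At each heartbeat, calcium enters the muscle cell through the L-type channel and triggers a much larger release from the sarcoplasmic reticulum, an internal store, through the ryanodine receptor. The muscle relaxes when a pump returns calcium to the store and an exchanger in the surface membrane moves the rest out of the cell. Small membrane proteins hold the pump back, and a calcium-activated kinase adjusts channel, pump and release together.

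The libraries labelled heart had high levels of ventricular muscle genes. Myh6, the main myosin of the adult mouse ventricle, averaged 23310 CPM and Myl2, the ventricular light chain, 5598 CPM, whereas the atrial light chains Myl7 and Myl4 stood at 0.403 and 1.21 CPM and the atrial Bmp10 at 0.00322 CPM. The 8 atrial markers were not all low: Pam averaged 790 CPM, Kcnj3 84.3, Nppa 7.79 (with most of its pairs lost to a gene on the opposite strand), Stard10 6.17 and Dkk3 1.90 CPM. In bulk tissue, fewer cells of a type and less RNA per cell cannot be told apart. The summed CPM of 8 cardiomyocyte markers ran from 50249 to 53155 at 8 weeks and from 49896 to 62359 at 12 weeks, so these ages overlapped. Ttn, the giant sarcomere spring, was the 1 of these 8 called higher from 8 to 12 weeks, with log2 fold changes above 0 in 4 and below 0 in 4. Myl2 was the 1 of 4 ventricular markers called higher, while the other 3 were below 0 (median of the 4: -0.26). Tie1 was the 1 of 6 endothelial markers called lower, with 3 above and 3 below 0. Of all genes tested in heart, 2.36% were called higher and 2.21% lower between these ages. The sum of 7 fibroblast markers was 726 to 764 CPM at 8 weeks, 839 to 1082 CPM at 10 weeks and 774 to 907 CPM at 12 weeks, and 2 of the 7 were called higher from 8 to 12 weeks. The sum of 6 smooth muscle markers, led by Des, which heart muscle also makes, was 2302 to 2350 CPM at 8 weeks and 1787 to 2160 CPM at 12 weeks, and none of them was called. The part of these shifts in the results below was not tested. Hepatocyte markers reached 18.4 and 23.9 CPM in 10-week replicates 2 and 4 and at most 3.68 CPM in the other hearts. In heart 2 libraries stood apart by the chi-square distance per gene: 8-week replicate 1, at 31.4 to 35.7 from the others of its age, which lay 5.91 to 12.6 from each other, and 12-week replicate 4, at 22.6 to 37.6 against 11.7 to 13.6. The number of genes called between 12 and 8 weeks, 691 with all libraries, moved both ways when 1 was left out: to 768 without 8-week replicate 1, 1850 without 12-week replicate 4, between 180 and 246 without another 8-week library, between 172 and 215 without another 12-week library, and between 553 and 754 without a 10-week one.

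The coding sequences of the pair of small pump inhibitors, Pln and Sln, are shown because the counting of one of them turned on its position opposite other genes. They were read from the mouse genome GRCm39, the authors' build, without the stop codon. Capitals mark bases that also lie in an exon of a gene on the opposite strand.

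Pln, chr10:53219960-53220115, plus strand: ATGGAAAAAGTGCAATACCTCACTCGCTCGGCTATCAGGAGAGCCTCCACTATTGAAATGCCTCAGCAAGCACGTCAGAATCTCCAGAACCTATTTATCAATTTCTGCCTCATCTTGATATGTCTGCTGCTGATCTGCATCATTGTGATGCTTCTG
Sln, chr9:53760757-53760849, plus strand: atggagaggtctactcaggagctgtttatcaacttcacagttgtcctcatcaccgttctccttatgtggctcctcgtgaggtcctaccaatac

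All 156 coding bases of Pln (52 codons) were shared, and none of the 93 of Sln (31 codons). This matters because the deposited column used here counts a pair only when it lies on a single gene, with no regard to strand.

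Between 8 and 12 weeks, 4 of the 9 members that could be tested in heart rose: the exchanger Slc8a1, the store protein Casq2, the release channel Ryr2 and the kinase Camk2d. The other 5, Atp2a2, Pln, Cacna1c, Jph2 and Trdn, did not pass the test, and no member fell. Of all 15137 genes tested in heart, 2.36% were called higher and 2.21% lower at an adjusted p under 0.05 (edgeR's quasi-likelihood test). In 5 members, the 4 called and Atp2a2, every 12-week library lay above every 8-week library, which held for 6.92% of all genes tested. With both strand columns of the count tables summed (so that pairs shared with a gene on the opposite strand count), Atp2a2 overlapped, since 12-week replicate 4 was at 16624 CPM and 8-week replicate 2 at 16760 CPM. The median log2 fold change was 0.21 over the 9 members and 0.00 over all genes tested. The remaining member, Sln, was too low to test. The plot of the members by age shows the single libraries.

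**Figure D1:**
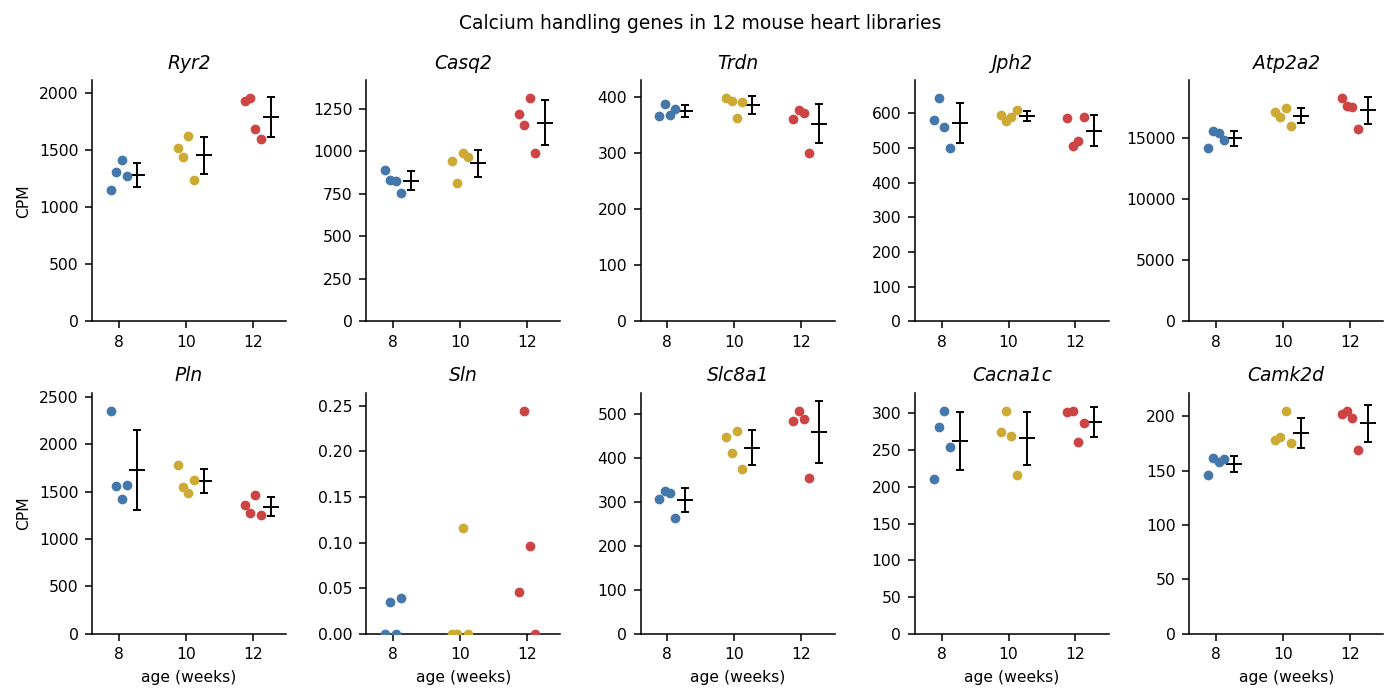
CPM of the 10 calcium handling genes in the 12 heart libraries (y axis, from 0, with a scale of its own for each gene) by age in weeks (x axis). Coloured points are libraries and black marks the mean ± SD of 4, left out for Sln; Ryr2, Casq2, Slc8a1, Camk2d and Atp2a2 show no overlap between 8 and 12 weeks.

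Ryr2 (chr13:11567988-12121870, minus strand) encodes the ryanodine receptor, the channel through which the store empties. At 8 weeks its replicates 1 to 4 read 1150, 1303, 1407 and 1267 CPM, at 10 weeks 1513, 1437, 1622 and 1234 CPM, and at 12 weeks 1925, 1951, 1679 and 1598 CPM. The 12-week libraries were all higher than the 8-week ones, and the 10-week libraries overlapped with both. The mean rose from 1282 ± 106 to 1788 ± 177 CPM (SD, n = 4 each), a log2 fold change of 0.48 ± 0.10 (SE; adjusted p = 0.0156, edgeR). At 10 weeks, with a mean of 1451 CPM, it differed from neither neighbouring age (adjusted p = 0.387 against 8 weeks and 0.264 for 12 against 10 weeks).

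Casq2 (chr3:101993234-102056307, plus strand) encodes calsequestrin, which binds calcium inside the store. Its replicates 1 to 4 read 889, 833, 825 and 752 CPM at 8 weeks, 942, 813, 990 and 966 CPM at 10 weeks, and 1217, 1152, 1311 and 992 CPM at 12 weeks. Each 12-week library lay above every library of both younger ages, although the lowest of them, at 992 CPM, barely cleared the highest 10-week library. The mean rose from 825 ± 56.2 to 1168 ± 134 CPM, with a log2 fold change of 0.50 ± 0.09 (adjusted p = 0.00962, edgeR). From 10 to 12 weeks the log2 fold change was 0.33 ± 0.09 and did not pass the correction (adjusted p = 0.227, edgeR), while 3.26% of all genes tested were higher without overlap between these ages.

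Trdn and Jph2 hold the release machinery in place. Trdn (chr10:32956550-33356376, plus strand) encodes triadin, which ties calsequestrin to the release channel, and its replicates 1 to 4 read 367, 388, 368 and 380 CPM at 8 weeks, 398, 394, 364 and 391 CPM at 10 weeks, and 362, 376, 373 and 301 CPM at 12 weeks. The ages overlapped, and only the 12-week replicate 4 stood clearly below the others. Its log2 fold change from 8 to 12 weeks was -0.09 ± 0.08 (adjusted p = 0.510, edgeR). Jph2 (chr2:163178162-163239920, minus strand) encodes junctophilin, which bridges the store and the surface membrane. It ranged from 501 to 644 CPM at 8 weeks, from 577 to 610 CPM at 10 weeks and from 505 to 590 CPM at 12 weeks, and its log2 fold change from 8 to 12 weeks was -0.06 ± 0.08 (adjusted p = 0.721, edgeR).

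Atp2a2 (chr5:122591575-122640903, minus strand) encodes SERCA2, the pump that refills the store, and was the most abundant member. Its replicates 1 to 4 read 14138, 15555, 15344 and 14777 CPM at 8 weeks, 17126, 16731, 17386 and 15939 CPM at 10 weeks, and 18234, 17568, 17496 and 15690 CPM at 12 weeks. All libraries of 10 and 12 weeks lay above the 8-week libraries. The log2 fold change from 8 to 12 weeks was 0.21 ± 0.08, and the difference did not pass the correction (adjusted p = 0.129, edgeR), although it did without the 12-week replicate 4 (adjusted p = 0.0406) and in DESeq2 (adjusted p = 0.0274). Those settings called 12.2% and 9.74% of the genes given an adjusted p, against 4.56% in the main fit. Leaving out other single hearts gave an adjusted p of up to 0.320 in edgeR.

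Pln (chr10:53199622-53223512, plus strand) encodes phospholamban, the main inhibitor of the pump in the ventricle. Its replicates 1 to 4 read 2353, 1560, 1423 and 1569 CPM at 8 weeks, 1780, 1553, 1480 and 1623 CPM at 10 weeks, and 1363, 1271, 1468 and 1250 CPM at 12 weeks. The 8-week replicate 1 was far above all others, and the ages of 8 and 12 weeks overlapped. All 12-week libraries lay below the 10-week ones, by little, which held for 2.82% of all genes tested. The log2 fold change from 8 to 12 weeks was -0.37 ± 0.13 and did not pass the correction (adjusted p = 0.0951, edgeR). Without the 8-week replicate 1 it was -0.18 (adjusted p = 0.216), in DESeq2 -0.37 (adjusted p = 0.0414) and with no count filter -0.38 (adjusted p = 0.00407).

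These Pln values rest on a small share of its pairs. Exons of the noncoding gene Gm47644, on the minus strand, cover 1372 of the 4105 bases of the canonical Pln transcript (33.4%), the whole coding sequence printed above among them, and exons of Cep85l, also on the minus strand, cover 141 bases. The authors' tables also hold a column for each strand, and in these unstranded libraries their sum returns pairs lost to opposite genes, crediting such pairs to both. In heart the deposited count of Pln was 20.4% of that sum, and the sum was 3.77 to 5.53 times the count in single libraries. Gm47644 had 3074 pairs of its own over the 12 hearts, against 1640005 when both strands were summed.

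With both strand columns summed, Pln replicates 1 to 4 read 8881, 7892, 7271 and 7281 CPM at 8 weeks, 8181, 7689, 7701 and 7913 CPM at 10 weeks, and 7173, 6864, 7543 and 6918 CPM at 12 weeks. The 8- and 12-week libraries again overlapped. On this count, added after the loss of pairs had been seen, the log2 fold change from 8 to 12 weeks was -0.14 ± 0.08 (adjusted p = 0.332, edgeR), less than that from the deposited column. Of the other members, the sum exceeded the deposited count by a ratio of 1.37 in Trdn and 1.07 in Atp2a2, and by at most 1.01 in the remaining 7.

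**Figure D2:**
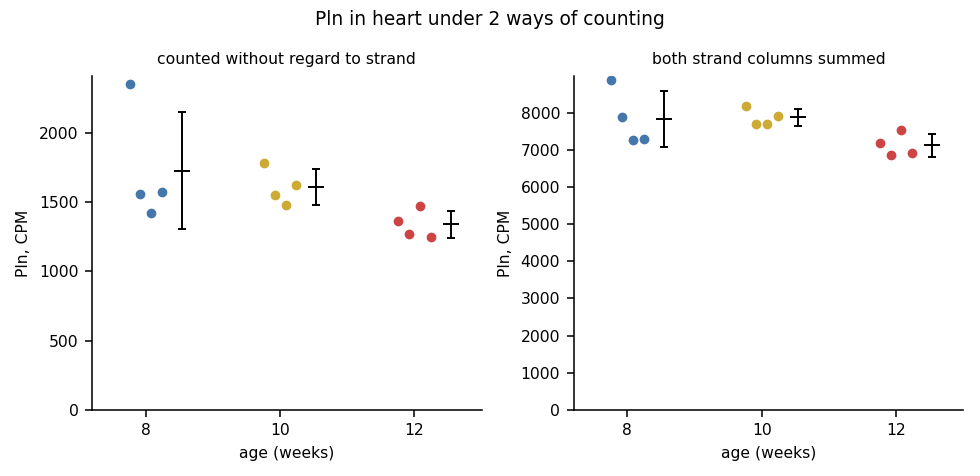
Pln in the 12 heart libraries by age in weeks, in CPM from 0, counted without regard to strand (left) and with both strand columns summed (right). Points are libraries and black marks the mean ± SD of 4; the left values lie between 1250 and 2353 CPM and the right ones between 6864 and 8881 CPM.

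Sln (chr9:53742537-53761846, plus strand) encodes sarcolipin, a pump inhibitor of atrium and skeletal muscle. It had 16 pairs in all over the 12 hearts, with 0 in 6 of them and at most 7 in one, and 0 pairs in all 24 libraries of kidney and liver. A count of 0 allows up to 3 pairs, which is at most 0.138 CPM in heart, 0.141 in kidney and 0.143 in liver for counting error only. No change with age was detectable at this depth.

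The proportions between partners were compared as well. The ratio of Pln to Atp2a2 pairs was 0.116 ± 0.0338 at 8 weeks, 0.0959 ± 0.00867 at 10 weeks and 0.0777 ± 0.00516 at 12 weeks (SD, n = 4). Over all 70 splits of 2 ages, the exact two-sided permutation p was 0.0286 for 12 against 8 and for 12 against 10 weeks, the smallest this design gives, and 0.0857 after adjustment over 6 tests. With both strand columns summed the same ratio was 0.494 ± 0.0755, 0.436 ± 0.0249 and 0.386 ± 0.0264 at 8, 10 and 12 weeks. The same exact test again gave its smallest p, 0.0286, for 12 against 8 weeks, and 0.0571 for 12 against 10 weeks. Both became 0.171 after adjustment over the 6 tests. The ratio of Casq2 to Ryr2 pairs was 0.648 ± 0.0866 at 8 weeks and 0.656 ± 0.0852 at 12 weeks, with an exact adjusted p of 0.971. These ratios compare read pairs of RNA without regard to transcript length, and do not measure protein. A ratio of Sln to Atp2a2 had no log value in the 6 hearts without Sln pairs and was not tested.

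Slc8a1 (chr17:81680534-82045891, minus strand) encodes the sodium-calcium exchanger NCX1, which moves calcium out of the cell, and had the largest log2 fold change among the members, except in a fit with an offset for the summed exon length of each gene, where that of Casq2 was larger. Its replicates 1 to 4 read 307, 325, 320 and 264 CPM at 8 weeks, 449, 412, 461 and 374 CPM at 10 weeks, and 484, 509, 490 and 355 CPM at 12 weeks. Every library of 10 and 12 weeks was above every 8-week library, while the 10- and 12-week libraries overlapped, the 12-week replicate 4 being the lowest of these. The mean rose from 304 ± 27.6 to 459 ± 70.1 CPM, a log2 fold change of 0.59 ± 0.11 (adjusted p = 0.00893, edgeR). It was also the only member called between 8 and 10 weeks (log2 fold change 0.48 ± 0.11, adjusted p = 0.0415, edgeR), where 0.76% of all genes tested were called higher. That earlier call was lost without any of 7 single libraries, 3 of 8, 3 of 10 and 1 of 12 weeks, with adjusted p of up to 0.132, and with both strand columns summed (adjusted p = 0.0575).

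Cacna1c (chr6:118564201-119173851, minus strand) encodes the pore of the L-type channel through which calcium enters. It ranged from 211 to 303 CPM at 8 weeks, from 216 to 303 CPM at 10 weeks and from 261 to 303 CPM at 12 weeks, so the ages overlapped. The log2 fold change from 8 to 12 weeks was 0.14 ± 0.11 (adjusted p = 0.480, edgeR).

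Camk2d (chr3:126389945-126639982, plus strand) encodes the delta chain of the calcium and calmodulin dependent kinase II, the main form in heart. Its replicates 1 to 4 read 146, 162, 158 and 161 CPM at 8 weeks, 178, 181, 205 and 175 CPM at 10 weeks, and 203, 205, 198 and 169 CPM at 12 weeks. The libraries of 10 and of 12 weeks all lay above those of 8 weeks. The mean rose from 156 ± 7.28 to 194 ± 16.7 CPM, a log2 fold change of 0.31 ± 0.08 (adjusted p = 0.0380, edgeR). The call was lost in 7 of the 12 fits without 1 library, in the fit on 2 ages only (adjusted p = 0.0561) and with the exon length offset (adjusted p = 0.190).

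Between 8 and 10 weeks the libraries did not overlap for 3 members, all higher at 10 weeks (Slc8a1, Camk2d and Atp2a2), against 5.05% of all genes tested. Between 10 and 12 weeks no member was called by edgeR, limma-voom or DESeq2, and 0.0396% of all genes tested were called in edgeR. At an unadjusted p under 0.05, edgeR listed 3 members there, Casq2, Ryr2 and Pln, and 11.7% of all genes tested. The 3 comparisons of ages share their libraries in pairs and are not independent.

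The 4 calls differed in how they held. Slc8a1 and Casq2 were called under all 12 fits that left out 1 heart library (adjusted p of at most 0.0340 and 0.0418). Ryr2 was called in 11 of 12, with adjusted p = 0.0531 without the 12-week replicate 1. Camk2d, with adjusted p of up to 0.106, was lost without any one of the 8-week libraries and without 12-week replicates 1, 2 or 3.

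The change with age in heart varied with gene length. Over all genes tested, the median log2 fold change from 8 to 12 weeks was -0.13 in genes with up to 1 kb of exons, -0.01 in those of 4 to 8 kb and 0.11 in those over 16 kb. In liver it ran from 0.06 to -0.08 over the same classes, and in kidney it stayed between -0.04 and 0.02. Ryr2, Camk2d, Cacna1c, Trdn and Slc8a1 have 30280, 26696, 22346, 21002 and 18996 exon bases and fall in the longest class, whereas Casq2 has 5710. A fit with an offset for exon length left Casq2 at 0.52 (adjusted p = 0.00841) and Slc8a1 at 0.47 (adjusted p = 0.0127), took Ryr2 to 0.30 (adjusted p = 0.0321) and took Camk2d to 0.14, where it was no longer called. With the length of the canonical transcript instead, 16853 bases for Ryr2 and 3265 for Slc8a1, Ryr2 was at 0.22 and not called (adjusted p = 0.0772), while Slc8a1, Casq2 and Camk2d were called at 0.61, 0.47 and 0.24 (adjusted p = 0.00868, 0.0142 and 0.0483, all edgeR).

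**Figure D3:**
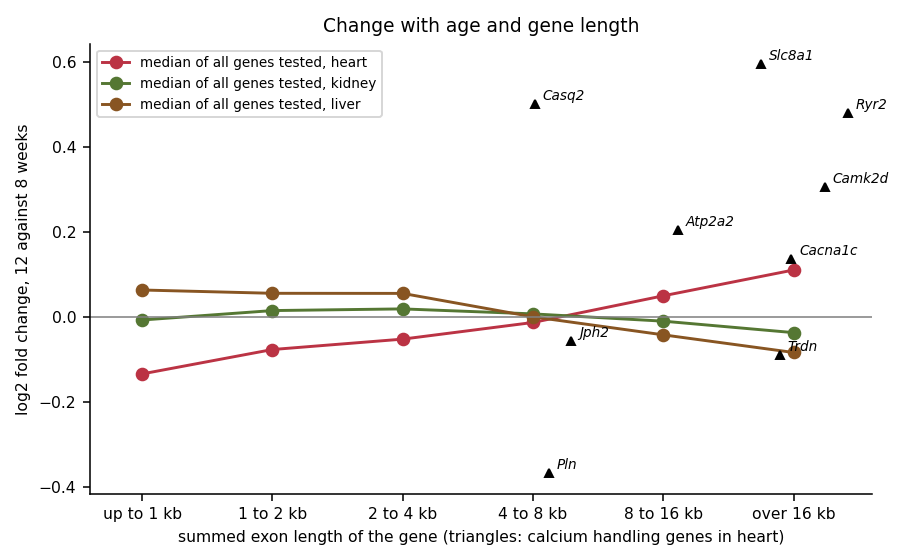
Log2 fold change from 8 to 12 weeks (y axis) by summed exon length (x axis, in classes that double). Lines join the medians of all genes tested in each tissue and triangles are 9 calcium handling genes in heart, placed by their log2 length; the heart line rises from -0.13 to 0.11, Slc8a1, Casq2 and Ryr2 lie well above it and Pln lies below.

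**Figure D4:**
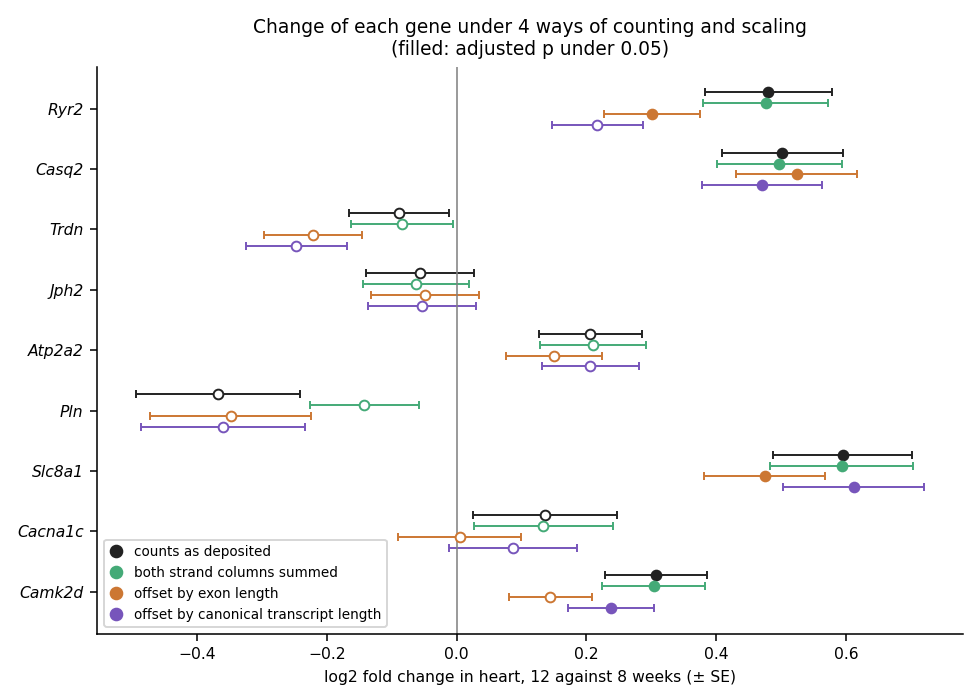
Log2 fold change in heart from 8 to 12 weeks ± SE (x axis) of the 9 members tested (y axis), under 4 ways of counting and scaling given by colour. Filled points passed an adjusted p under 0.05; Slc8a1 and Casq2 are filled under all 4, Ryr2 and Camk2d under 3, and Pln moves from -0.37 to -0.14 once both strand columns are summed.

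Per kilobase of canonical transcript, the members spanned a wide range of levels in heart. Atp2a2 stood highest at 3680 ± 286 CPM per kb (SD over 12 libraries), above Pln at 379 ± 71.0, or 1854 ± 139 with both strand columns summed. Casq2 followed at 176 ± 31.3, Jph2 at 134 ± 10.1, Slc8a1 at 121 ± 25.2 and Ryr2 at 89.4 ± 15.4 CPM per kb, and each of these neighbours overlapped in the range of their libraries. With this length the means of Jph2 and Slc8a1 changed order with age, which was not tested. Jph2 was at 134 ± 13.8 and Slc8a1 at 93.2 ± 8.46 CPM per kb at 8 weeks, against 129 ± 10.3 and 141 ± 21.5 CPM per kb at 12 weeks (SD, n = 4). Cacna1c at 40.8 ± 4.84, Trdn at 33.4 ± 2.29 (45.9 ± 3.13 with both strand columns summed, above Cacna1c) and Camk2d at 24.2 ± 2.77 CPM per kb closed the order of the tested genes, again with overlapping neighbours, and Sln was at 0.0365. With the length of all exons, Ryr2 ranked above Slc8a1 (49.8 and 20.8 CPM per kb). Jph2 then lay above Slc8a1 at every age, at 72.2 to 92.8 against 13.9 to 26.8 CPM per kb.

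Across the 12 hearts, which span the 3 ages, r was positive in some pairs of members and negative in others. Atp2a2 and Camk2d had a Pearson r of 0.953 between their log2 CPM, Atp2a2 and Slc8a1 0.946, and Slc8a1 and Camk2d 0.914. Pln had a negative r with 6 of the other 8 tested members, down to -0.718 with Ryr2 and -0.731 with Cacna1c. Every r of Pln, that with its nearest gene below included, used the deposited column, with 20.4% of its summed pairs. The outlying 8-week replicate 1 was among the libraries, and no r was taken with both strand columns summed. Jph2 and Trdn had an r of -0.02 with each other. All libraries share their scaling and their age groups in these values. Among all genes with a mean of at least 1 CPM, the nearest by Pearson r was Vps13d for Ryr2 (0.974), Calu for Casq2 (0.976), Uggt1 for Atp2a2 (0.965), Tpt1 for Pln (0.960), Zdhhc21 for Slc8a1 (0.984), Ate1 for Camk2d (0.972), Ncor1 for Cacna1c (0.934), Mapkapk3 for Jph2 (0.909) and the pseudogene H3f3a-ps1 for Trdn (0.938).

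Beyond the members, 69 other genes of calcium handling were examined, of which 66 passed the count filter in heart. From 8 to 12 weeks 2 of the 66 rose and 1 fell, beside the shares of all genes given above, and their median log2 fold change was 0.02. Akap6, an anchor that gathers kinases and release channels at the nuclear envelope and the store, rose from 157 ± 9.46 to 241 ± 42.5 CPM (log2 fold change 0.62 ± 0.11, adjusted p = 0.00716, edgeR), and was at 0.38 with the canonical length offset (adjusted p = 0.0189). Asph, whose locus also encodes the store protein junctin, rose from 184 ± 12.5 to 232 ± 3.73 CPM (0.34 ± 0.07, adjusted p = 0.0197), a call lost with the exon length offset (adjusted p = 0.0974). Cav3, the caveolin of muscle membranes, fell from 52.0 ± 3.07 to 39.7 ± 6.44 CPM (log2 fold change -0.39 ± 0.10, adjusted p = 0.0374, edgeR). Leaving out single hearts gave Asph an adjusted p of up to 0.0722 and Cav3 of up to 0.106.

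By role, the 17 other genes of the release complex had 15 tested, with 1 higher (Asph) and 1 lower (Cav3). The 27 kinases, phosphatases and buffers were all tested, with 1 higher (Akap6). None was called among 13 tested surface channels and pumps, 5 genes of the pump and its micropeptides, and 6 of mitochondrial calcium uptake; at an unadjusted p under 0.05 edgeR listed 18 of the 66, and 23.4% of all genes tested. Hrc, a calcium-binding store protein, averaged 836 ± 52.6 CPM in the 8-week and 1009 ± 66.2 CPM in the 12-week hearts, without overlap and with adjusted p = 0.0532 in edgeR. It was called by limma-voom (adjusted p = 0.0440), DESeq2 (adjusted p = 0.00838), without scaling factors, on the first strand alone and with either length offset. In the 12 edgeR fits without 1 heart library, Hrc was called in 0, with adjusted p from 0.0506 to 0.136. Cacnb2 and Cacna2d1, the accessory subunits of the L-type channel, had log2 fold changes of -0.17 (adjusted p = 0.427) and -0.07 (adjusted p = 0.636), and the store potassium channel Tmem38a had -0.005, of a sign that turns with the scaling (adjusted p = 0.979). Strit1, which encodes the pump-enhancing micropeptide DWORF, averaged 3.91 CPM in the youngest and 3.32 CPM in the oldest hearts (adjusted p = 0.378, edgeR). Fkbp1b, whose protein binds the ryanodine receptor, did not pass the filter and averaged 0.309, 0.367 and 0.352 CPM at the 3 ages. No gene of this list was called from 8 to 10 or from 10 to 12 weeks in edgeR. Of the 66, 9 and 11 had an unadjusted p under 0.05 in edgeR, beside 15.8% and 11.7% of all genes tested. limma-voom and DESeq2 were also run on these comparisons, but their calls for this list were not read out.

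Kidney and liver were read beside the heart. Their defining markers were high, with sums of 10709 to 12540 CPM for 8 kidney tubule and glomerular genes in kidney and of 73727 to 126067 CPM for 6 hepatocyte genes in liver. All 9 tested members were higher in heart than in kidney and in liver (edgeR on all 36 libraries), where 39% and 42% of all genes tested were called higher in heart. This outcome was largely fixed beforehand, since the genes were chosen for their role in heart. A gene was also tested here if it passed the count filter in any tissue. In liver only Atp2a2, Camk2d and Slc8a1 passed it, and in kidney Casq2 did not. Slc8a1 had the smallest gap to kidney: it averaged 216 ± 24.8 CPM there against 396 ± 82.4 CPM in heart (SD, n = 12), and was 2.60-fold higher in heart once scaled over all libraries (adjusted p = 4.28e-16). In liver it stood at 1.68 ± 0.642 CPM.

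Camk2d averaged 30.8 ± 2.48 CPM in kidney and 7.51 ± 0.852 CPM in liver, 8.34-fold and 19.7-fold under the heart. Atp2a2, which is made in most tissues, averaged 560 ± 60.1 CPM in kidney and 240 ± 43.3 CPM in liver, with the heart 42.1-fold and 57.1-fold higher. The remaining members were low outside the heart. In kidney, Cacna1c averaged 3.60, Jph2 3.29, Trdn 2.62 and Ryr2 2.13 CPM, whereas Pln averaged 0.508 and Casq2 0.199 CPM. In liver, Ryr2 had 0 pairs in all 12 libraries. The heart mean of 1507 CPM was 10565-fold above a floor of 3 pairs in the shallowest liver library. That fold used CPM scaled within each tissue, unlike the other folds, which were scaled over all libraries. It is therefore not a strict lower bound. Trdn had 1 pair in liver, Pln 19, Casq2 30, Jph2 63 and Cacna1c 83, over 12 libraries.

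**Figure D5:**
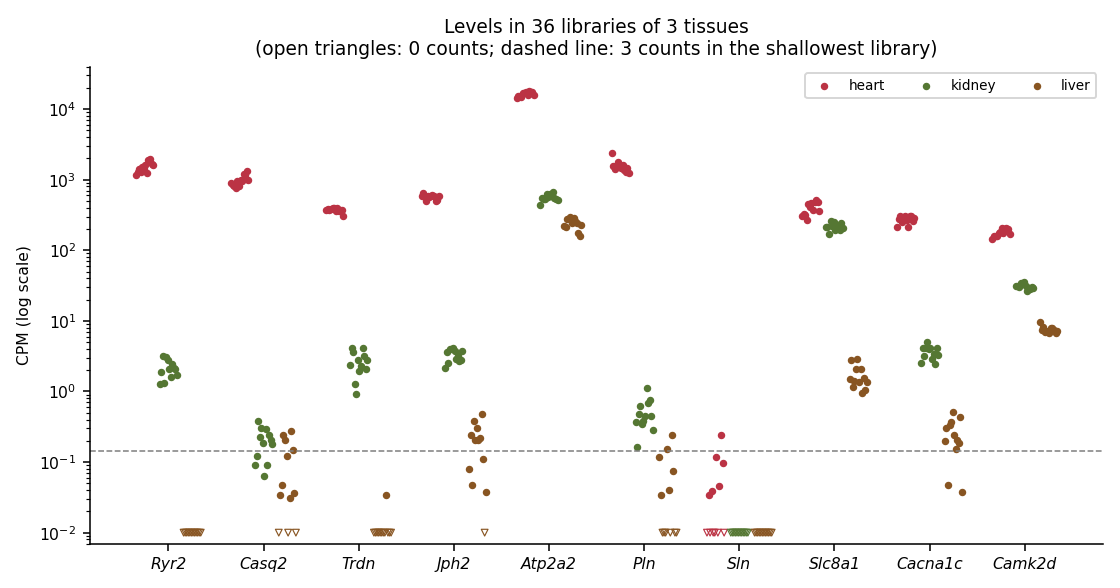
CPM of the 10 genes (log scale, y axis) in 12 libraries each of heart, kidney and liver, scaled within each tissue. Open triangles are libraries with 0 pairs, drawn at the foot of the axis, and the dashed line is 3 pairs in the shallowest library (0.143 CPM); Slc8a1 in kidney lies close to heart while most other members lie far below it.

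With the count filter, no member was called with age in kidney, where 8 were tested, or in liver, where only Atp2a2, Camk2d and Slc8a1 passed the filter. edgeR, limma-voom and DESeq2 called 0 in all 6 comparisons. In kidney edgeR called 0.0567% of all genes tested from 8 to 12, 0.929% from 8 to 10 and 0.482% from 10 to 12 weeks, and in liver 0.239%, 0.0204% and 0.0545%. At an unadjusted p under 0.05 edgeR listed 1 member in kidney, Atp2a2 from 8 to 10 weeks, and 2 in liver, Atp2a2 and Slc8a1 from 10 to 12 weeks, beside 16.5% and 14.1% of all genes tested. Atp2a2 averaged 511 ± 50.6, 604 ± 25.8 and 566 ± 64.8 CPM in kidney at the 3 ages, and its 10-week libraries lay above the 8-week ones without overlap (log2 fold change 0.24 ± 0.08, adjusted p = 0.167, edgeR), as did 5.02% of all genes tested. With no count filter Atp2a2 was called there. Slc8a1 in kidney was level, with means of 214, 218 and 216 CPM at 8, 10 and 12 weeks.

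Whether the change from 8 to 12 weeks differed between tissues was tested directly, with libraries of different tissues taken as independent although some came from the same mice. Against kidney no member passed in edgeR, where 0.112% of all genes tested did, although 2, Camk2d and Slc8a1, had an unadjusted p under 0.05, as did 11.1% of all genes tested. Camk2d differed by 0.45 ± 0.12 on the log2 scale (adjusted p = 0.104) and Slc8a1 by 0.59 ± 0.22 (adjusted p = 0.284), and limma-voom called 1 member, Camk2d (adjusted p = 0.0499). Against liver, where 4.16% of all genes tested were called, 2 members passed in edgeR. The signed change in heart minus that in liver was 1.11 ± 0.29 for Slc8a1 (adjusted p = 0.0251) and 0.46 ± 0.12 for Camk2d (adjusted p = 0.0288). Fitted within each tissue, Slc8a1 was at 0.59 in heart and -0.48 in liver, and Camk2d at 0.31 and -0.15, neither called in liver. In liver both were low, with means from 8 to 12 weeks of 1.71 and 1.24 CPM for Slc8a1 and 8.10 and 7.27 CPM for Camk2d. limma-voom called neither against liver (adjusted p = 0.230 and 0.0741) and called Atp2a2 instead (0.51, adjusted p = 0.0284), which edgeR put at 0.50 ± 0.17 (adjusted p = 0.0813).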

How the data were processed

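Per the labels, polyadenylated RNA of each tissue was sequenced as read pairs. The authors checked quality with FastQC 0.11.9, trimmed with cutadapt 4.2, aligned to GRCm39 with the Ensembl annotation using STAR 2.7.11b, and deposited raw read-pair counts per gene, without normalization, in 1 column without regard to strand and 1 for each strand. A pair that touches 2 genes counts for neither. RNA had been purified on RNeasy columns and sequenced on an Illumina NovaSeq. The library kit is not given in the sources used here. The first strand held 49.8% to 50.2% of the strand-assigned pairs, so the libraries carry no strand information.

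Of 78239 identifiers, 78168 matched the GENCODE annotation of the same build, which gave coordinates and lengths. The tests used the column that ignores strand. Within each tissue, genes with counts above 0 in at least 2 libraries and a mean of at least 10 in 1 age group were kept (15137 in heart, 17649 in kidney, 14672 in liver), scaled by TMM and tested with edgeR 4.0.16 (R 4.3.3) in a quasi-likelihood model with a mean for each age. P-values were adjusted by Benjamini-Hochberg over all genes kept, with calls at an adjusted p under 0.05. Tissues were compared in 1 model of 9 groups over 19716 genes. Ratios were tested by exact permutation. The labels call the samples biological replicates and do not tie them to mice. The study's methods give fewer mice than libraries at each age, so some mice gave more than 1 tissue. Tests between tissues treat all libraries as independent, and which libraries share a mouse is not given in the sources used here. CPM were scaled by TMM factors within a tissue. The lowest chi-square distance between replicates, 5.91 per gene, gave no sign of 1 library deposited under 2 names.

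The scripts were tested on simulated data. Alternatives were limma 3.58.1 (voom), DESeq2 1.42.0, RLE factors, no factors, no count filter, filterByExpr, 2 ages only, a replicate block, the first strand alone, a length offset (a lowess curve with a span of 0.3) and each library left out. After the results were seen, both strand columns summed and an offset by canonical transcript length were added. The genes named are all 10 members, 7 fixed pathway genes, pathway genes called in heart, and the genes nearest to each member by Pearson r. The members and gene lists were chosen with earlier results of these data known.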

Additional observations from a re-analysis of the deposited data

Results flagged for a closer look

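Groups of 4 libraries were searched for a single library far from the other 3. Of 60 groups of a member, tissue and age, 3 held one, and chance alone gives about 1 in 20 groups. In heart at 8 weeks, Pln was at 2353 CPM in replicate 1 against 1423 to 1569 CPM in the others, and in heart at 12 weeks, Slc8a1 was at 355 CPM in replicate 4 against 484 to 509 CPM. In kidney at 10 weeks, Pln was at 1.11 CPM in replicate 4 against 0.348 to 0.451 CPM in the others, at 8 to 30 pairs a library.

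The change from 8 to 12 weeks differed between heart and liver, by the interaction test in edgeR, for Slc8a1 (1.11 on the log2 scale, adjusted p = 0.0251) and Camk2d (0.46, adjusted p = 0.0288). Neither passed in limma-voom (adjusted p = 0.230 and 0.0741). The call of Slc8a1 was lost without heart 12-week replicate 2 or liver 12-week replicates 1 or 3, and that of Camk2d without heart 8-week replicate 1, heart 12-week replicates 1, 2 or 3, or liver 12-week replicate 3. Without liver 8-week replicate 2, the highest of its group for Slc8a1, that difference was 0.71 (adjusted p = 0.160), and without liver 8-week replicate 1, the highest for Camk2d, that of Camk2d was 0.36 (adjusted p = 0.0831).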

How the results depend on the processing

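In heart from 8 to 12 weeks, edgeR called 4 members, and 12 alternatives to the processing gave between 3 and 6. The share of all genes called also moved, from 4.56% in the main fit. DESeq2, with 6 members, called 9.74% of the genes it gave an adjusted p. The fit on 2 ages only, with 3 members, called 3.07%, and either length offset, also with 3, called 4.67%. The alternatives that sum both strand columns or use an offset by canonical transcript length were chosen after seeing the data. Counts of called members moved by over 1.5 times in few cases. In heart from 8 to 10 weeks, 0 members were called with both strand columns summed, against 1, beside 0.631% and 1.06% of all genes tested. In kidney from 8 to 10 weeks, 1 (Atp2a2) was called with no count filter, against 0, beside 2.39% and 0.929% of all genes tested. For the difference in change between heart and kidney, limma-voom called 1, against 0. For that between heart and liver, limma-voom called 1 (Atp2a2), against 2. The cause of these shifts was not tested.

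Some small, uncalled log2 fold changes in heart turned sign. With the exon length offset Cacna1c from 8 to 10 weeks was at -0.0257, and Atp2a2 and Camk2d from 10 to 12 weeks were at -0.00412 and -0.0366. With the canonical length offset Trdn from 8 to 10 weeks was at -0.0181. Tmem38a from 8 to 12 weeks was at 0.0216 without scaling factors, 0.0108 on the first strand alone, 0.0323 with the exon length offset and 0.0262 with the canonical one.

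Without 1 library at a time, 2 to 5 members were called in heart from 8 to 12 weeks, with 2 (Casq2 and Slc8a1) without 12-week replicate 1 and 5 (Atp2a2 added) without 12-week replicate 4. These 2 fits called 1.4% and 12.2% of all genes tested, against 4.56% with all libraries. From 8 to 10 weeks the range was 0 to 1, with 0 without 8-week replicates 2, 3 or 4, 10-week replicates 1, 3 or 4, or 12-week replicate 3. Fits for these ages called 0.211% to 2.7% of all genes tested, against 1.06% with all libraries. The difference between heart and kidney was called in 0 to 1 members (1, Camk2d, without heart 12-week replicate 4), and that between heart and liver in 0 to 3, with 0 without heart 12-week replicate 2 or liver 12-week replicate 3 and 3 without liver 12-week replicate 4. Log2 fold changes from 8 to 10 weeks ran from -0.0700 to 0.107 for Cacna1c, -0.00776 to 0.112 for Jph2 and -0.184 to 0.0852 for Pln. From 8 to 12 weeks they ran from -0.115 to 0.00467 for Jph2 and -0.0990 to 0.0512 for Tmem38a. The log2 ratio of Casq2 to Ryr2 differed by -0.0681 to 0.106 from 8 to 12, -0.104 to 0.0806 from 8 to 10 and -0.0608 to 0.122 from 10 to 12 weeks. Fits that leave a group with 3 libraries share the spread of the other groups.

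Groups share replicate numbers, and a fit with the replicate number as a block called 4, 1 and 0 members in heart from 8 to 12, 8 to 10 and 10 to 12 weeks, the same counts as without it, and 1 instead of 2 for the difference between heart and liver, where Camk2d was lost (adjusted p = 0.0641). Across ages in heart, libraries of 1 number did not deviate together. The correlations of their deviations from the group means lay between -0.0858 and 0.154, and 4 of 12 libraries correlated best with their own number. Between tissues of 1 age and number, these correlations lay between -0.00884 and 0.164, and 34 of 36 were above 0. The numbers were not read as pairs, under a rule that asked for every correlation to be over 0.1. This rule cannot decide whether libraries of 1 number from different tissues share a mouse. With 4 pairs, exact sign flips of the ratios cannot go below p = 0.125.

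The depth set no limit for 9 members in heart, at 3472 pairs a library or more. In liver Slc8a1 had 24 to 95 pairs a library, and for Sln no change was detectable at this depth in any tissue.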
